A study of Mus musculus with 30 samples.

Results

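The transcripts of the aminoacyl-tRNA synthetases were followed across 30 single mouse blastocysts, 1 blastocyst per array. Of 36 listed genes, 20 were classed as cytosolic and 16 as mitochondrial by their symbols, in which a final 2 marks the mitochondrial enzyme. For 34 of them (18 cytosolic and 16 mitochondrial) the array held a transcript cluster with that single gene symbol, among 30142 genes in all, and the cluster with the highest mean over the 30 arrays was taken. Aars stood only on a cluster with several symbols and Dars was not matched, so neither was analysed here. Pars2, the mitochondrial prolyl enzyme, fell below the level filter that kept 18091 genes, and 33 members were tested.

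The study split 10 mouse embryos of B6C3F1 x CD1 matings, conceived in vivo after hormonal stimulation, into their blastomeres when they had 2 cells. One blastomere of an embryo grew to a blastocyst in GM501 and its sister in SAGE 1-Step, both media for human assisted reproduction, which gave 10 GM501 twins and 10 SAGE twins paired by embryo. The 10 controls were intact embryos of the same matings grown individually in KSOM(aa), a mouse embryo medium that also held the embryos before the split (up to the 2-cell stage by 1 label, for 2 h by another). All were lysed 4 days post coitum after 96 h in culture, at about 40 to 50 cells in a twin and about 80 in a control. Twins and controls differ by medium, by bisection and by cell number together, and the parts of these cannot be told apart. In such whole-embryo samples, fewer cells of a type and less RNA per cell cannot be told apart either. Before any comparison, the arrays of 13 twins stood apart in their median over all clusters: the 12 twins of pairs 1 to 6 had 5.01 ± 0.15 and the SAGE twin of pair 8 had 5.12, against 4.64 ± 0.03 in controls (log2 signal, mean ± SD).

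Aminoacyl-tRNA synthetases join each amino acid to its tRNA, and the charged tRNAs feed the ribosome. The cytosolic enzymes serve translation of nuclear-encoded messages, and a separate set of nuclear-encoded enzymes, named with a 2, serves the ribosomes inside mitochondria. Gars and Kars are exceptions, since each of these genes makes both a cytosolic and a mitochondrial enzyme, and Eprs makes 1 protein that charges both glutamate and proline tRNAs. Many cytosolic synthetase genes belong to the targets of ATF4, a transcription factor whose translation rises when amino acids are scarce or the endoplasmic reticulum is stressed.

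The cytosolic synthetases were lower in the twins of both media than in the controls, and none of them was higher. In GM501 twins 16 of 18 cytosolic members were called lower at an adjusted p under 0.05 (limma), against 6.97% of all genes tested called lower and 6.81% called higher. In SAGE twins 14 of 18 were called lower, against 8.63% of all genes lower and 7.5% higher. Of the 15 mitochondrial members tested, 0 were called in either comparison. Of all genes 13.8% and 16.1% were called in 1 direction or the other, so 0 calls among 15 genes tell little by themselves. The smallest adjusted p of a mitochondrial member was 0.0736 (limma), and 3 mitochondrial members in each comparison had an unadjusted p under 0.05. Both comparisons use the same 10 controls, and 13 cytosolic members were called in both. Set beside the level filter of 4.80, mean signals ran from 7.1 (Vars) to 15.3 (Nars) for the cytosolic members. For the mitochondrial members tested they ran from 5.26 (Wars2) to 10.36 (Rars2), so some stood close to the filter. A signal close to the filter limits how far a gene can fall. The part of signal level in the contrast of the classes was not tested.

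Over all measured members, the median log2 difference from the controls was -1.07 for the cytosolic class and -0.20 for the mitochondrial class in GM501 twins, beside 0.11 for all genes kept. In SAGE twins these medians were -1.13, -0.11 and 0.11. All 18 cytosolic members lay below the controls in both media, whereas 10 of 16 mitochondrial members did, where 38.4% and 39.7% of all genes did. The median over all genes depended on how the arrays were scaled: it was 0.11 in the deposited values of GM501 twins, -0.07 when arrays were centred on their medians and 0.03 when they were quantile normalized again, and all 18 cytosolic members lay below the controls under all 3 scalings in both media. With centred arrays 16 cytosolic members were called lower in each medium, where 9.99% of all genes were called lower and 2.02% higher for GM501, and 13.2% and 2.15% for SAGE. Under that scaling 2 mitochondrial members, Mars2 and Vars2, were called lower in GM501 twins. It also put 14 of 16 (GM501) and 13 of 16 (SAGE) mitochondrial members below the controls, with class medians of -0.39 and -0.30, beside -1.25 and -1.32 for the cytosolic class.

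To follow the classes embryo by embryo, each member was set on the mean of the 10 controls and averaged over its class in each array. This cytosolic index averaged -1.14 with an SD of 0.91 among GM501 twins, -1.11 with an SD of 0.83 among SAGE twins and 0.00 with an SD of 0.16 among controls (log2, n = 10 each). The mitochondrial index was -0.12 ± 0.25, -0.08 ± 0.27 and 0.00 ± 0.08 in the same order. The cytosolic index lay below the lowest control in 7 GM501 twins and 8 SAGE twins, and the remaining twins fell among the controls. The difference between the classes, cytosolic minus mitochondrial, was -1.02 ± 0.74 in GM501 twins and -1.03 ± 0.67 in SAGE twins, against an SD of 0.12 in controls, and lay below the lowest control in 8 and 9 of 10 twins; as a score over chosen genes it was given no test.

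**Figure D1:**
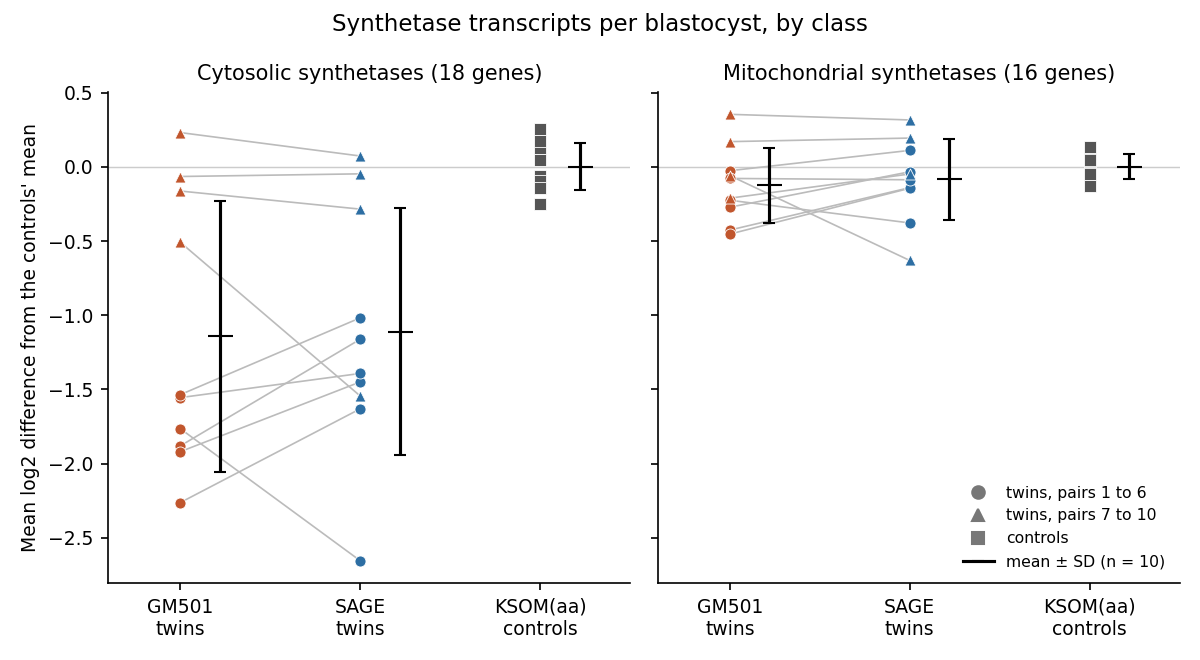
Class index per blastocyst (mean log2 difference of the class from the controls' mean; 18 cytosolic genes at left, 16 mitochondrial at right); grey lines join co-twins and bars give mean ± SD (n = 10). The cytosolic index of the twins spreads from -2.66 to 0.23 while controls stay between -0.25 and 0.26; the mitochondrial index of the twins stays between -0.63 and 0.35.

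Because the cytosolic members moved together, the promoters of these genes were searched for TGATGNAA, the core of the response element bound by ATF4 with a C/EBP partner, on both strands. RefSeq windows of 300 bases around the start (build GRCm38.p6, 250 bases before to 50 after) were at hand for 25 of the 34 measured members. The motif stood in 4 of 11 cytosolic windows (Gars, Iars, Tars and Yars), in 0 of 14 mitochondrial windows and in 4.51% of 27025 genes. Among other known ATF4 targets, 9 of 26 held it. The stricter form TGATGCAA, which is contained in the first, stood in 3 of the 11 (Iars, Tars and Yars), in 0 of 14 mitochondrial windows and in 1.03% of genes. The motif of the nuclear respiratory factor NRF1 stood in 3 of 11 cytosolic windows (Farsb, Kars and Tars), in 2 of 14 mitochondrial windows (Iars2 and Mars2) and in 5.19% of genes. A match describes letters in the window and is no evidence of binding, and windows without one say nothing about the factor.

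The matched stretches are shown for the 4 cytosolic genes, with Tars2, the mitochondrial partner of Tars, as a window without the motif. Each is written 5′ to 3′ on the gene's strand, and capitals mark the motif or its reverse complement. The Gars stretch is chr6:55037901-55038000 (plus strand, match at -30 to -23 from the start), and the Tars stretch is chr15:11399659-11399758 (minus strand, match at -15 to -8). The Iars stretch is chr13:49682126-49682155 (plus strand, match at 8 to 15), the Yars stretch is chr4:129189895-129189924 (plus strand, match at 4 to 11) and the Tars2 stretch is chr3:95754978-95755077 (minus strand). The start sites used for Tars2 and Yars lie inside the listed genes, which begin further upstream (Tars2 at 95756365 and Yars at 129189734), so other starts of these genes were not searched. The Gars and Tars matches lie just before the table's start site, and those of Iars and Yars just after it.
Gars: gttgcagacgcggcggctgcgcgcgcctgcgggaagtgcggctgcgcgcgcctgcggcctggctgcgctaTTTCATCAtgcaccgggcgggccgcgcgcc
Tars: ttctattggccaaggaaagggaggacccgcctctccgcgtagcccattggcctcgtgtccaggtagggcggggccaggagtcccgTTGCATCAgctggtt
Iars: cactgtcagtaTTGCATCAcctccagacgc
Yars: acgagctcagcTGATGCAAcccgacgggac
Tars2: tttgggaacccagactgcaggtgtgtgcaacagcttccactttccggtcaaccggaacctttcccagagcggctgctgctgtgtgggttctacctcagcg

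Wars, which charges tryptophan tRNA (chromosome 12, 108860030 to 108894175, GRCm38.p6), had the smallest p of all members. Its log2 signal ran from 7.61 to 10.93 in GM501 twins (median 8.66), from 7.40 to 10.82 in SAGE twins (median 8.69) and from 10.25 to 11.76 in controls (median 10.98). In each medium 8 of 10 twins lay below the lowest control and all 10 below the controls' median. The highest twins, at 10.93 and 10.82, reached well into the lower part of the controls' range. The difference was -1.91 ± 0.36 (log2, SE) in GM501 twins and -1.98 ± 0.35 in SAGE twins, or 3.76-fold and 3.93-fold lower, with adjusted p of 0.00502 and 0.00521 (limma).

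Gars, the glycyl enzyme of both compartments, carried the promoter match shown above. It ran from 12.34 to 15.72 in GM501 twins (median 13.77), from 12.62 to 15.90 in SAGE twins (median 14.45) and from 15.45 to 16.15 in controls (median 15.89). In each medium 7 twins lay below every control and 3 within the controls' range. The difference was -1.68 ± 0.36 in GM501 twins and -1.31 ± 0.32 in SAGE twins (adjusted p of 0.0102 and 0.0157, limma).

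Cars, the cysteinyl enzyme, split the twins by pair. It ran from 7.00 to 10.26 in GM501 twins (median 7.45), from 6.75 to 10.02 in SAGE twins (median 7.98) and from 9.27 to 10.05 in controls (median 9.78). The 12 twins of pairs 1 to 6 lay between 6.75 and 8.08, and those of pairs 7, 9 and 10 between 9.24 and 10.26. The overall difference was -1.50 ± 0.40 in GM501 twins and -1.53 ± 0.36 in SAGE twins (adjusted p of 0.0241 and 0.014, limma).

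Among the enzymes of the multisynthetase complex, Qars charges glutamine tRNA, Mars1 methionine tRNA (listed as Mars) and Kars lysine tRNA. Qars ran from 11.24 to 12.99 in GM501 twins (median 11.94), from 10.90 to 13.08 in SAGE twins (median 11.79) and from 12.86 to 13.44 in controls (median 13.00). Mars1 ran from 9.63 to 12.19 (median 10.55), from 10.06 to 12.04 (median 10.60) and from 11.41 to 12.23 (median 11.89) in the same order. Kars ran from 12.26 to 15.20 (median 13.95), from 12.55 to 14.88 (median 13.93) and from 14.75 to 15.10 (median 14.91). Qars lay below every control in 9 GM501 twins and 8 SAGE twins, and Kars in 7 and 8, while 2 GM501 twins exceeded every control for Kars. In GM501 twins the differences were -0.90 ± 0.20 for Qars, -1.10 ± 0.31 for Mars1 and -0.94 ± 0.31 for Kars (adjusted p of 0.0116, 0.0272 and 0.0465, limma). In SAGE twins they were -0.99 ± 0.22, -1.12 ± 0.23 and -1.13 ± 0.26 (adjusted p of 0.0122, 0.00799 and 0.013, limma).

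Lars, the leucyl enzyme, had the largest difference of any member, -2.01 ± 0.48 in GM501 twins and -2.08 ± 0.58 in SAGE twins (adjusted p of 0.0163 and 0.0258, limma). Nars, the asparaginyl enzyme, fell by 1.39 and 1.27 on the log2 scale (adjusted p of 0.0157 and 0.0149, limma). In GM501 twins Farsb and Yars, which make the phenylalanyl beta subunit and the tyrosyl enzyme, fell by 0.52 and 0.89 (adjusted p of 0.0167 and 0.0228, limma). In SAGE twins Sars, the seryl enzyme, fell by 1.65 (adjusted p of 0.017, limma). The differences of the other called members ran from -1.68 (Sars) to -0.79 (Rars) in GM501 twins and from -1.41 (Tars) to -0.54 (Vars) in SAGE twins.

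Only a few cytosolic members missed the threshold. In GM501 twins these were Hars, the histidyl enzyme (-0.37, 95% interval -0.75 to 0.01), and Vars, the valyl enzyme (-0.27, -0.78 to 0.23). In SAGE twins they were Yars (-0.68, -1.18 to -0.19), Rars (-0.65, -1.14 to -0.17), Hars (-0.56, -1.04 to -0.07) and Farsb (-0.37, -0.72 to -0.02). All of these values lay below 0, and the 2 intervals of GM501 twins reached above it.

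**Figure D2:**
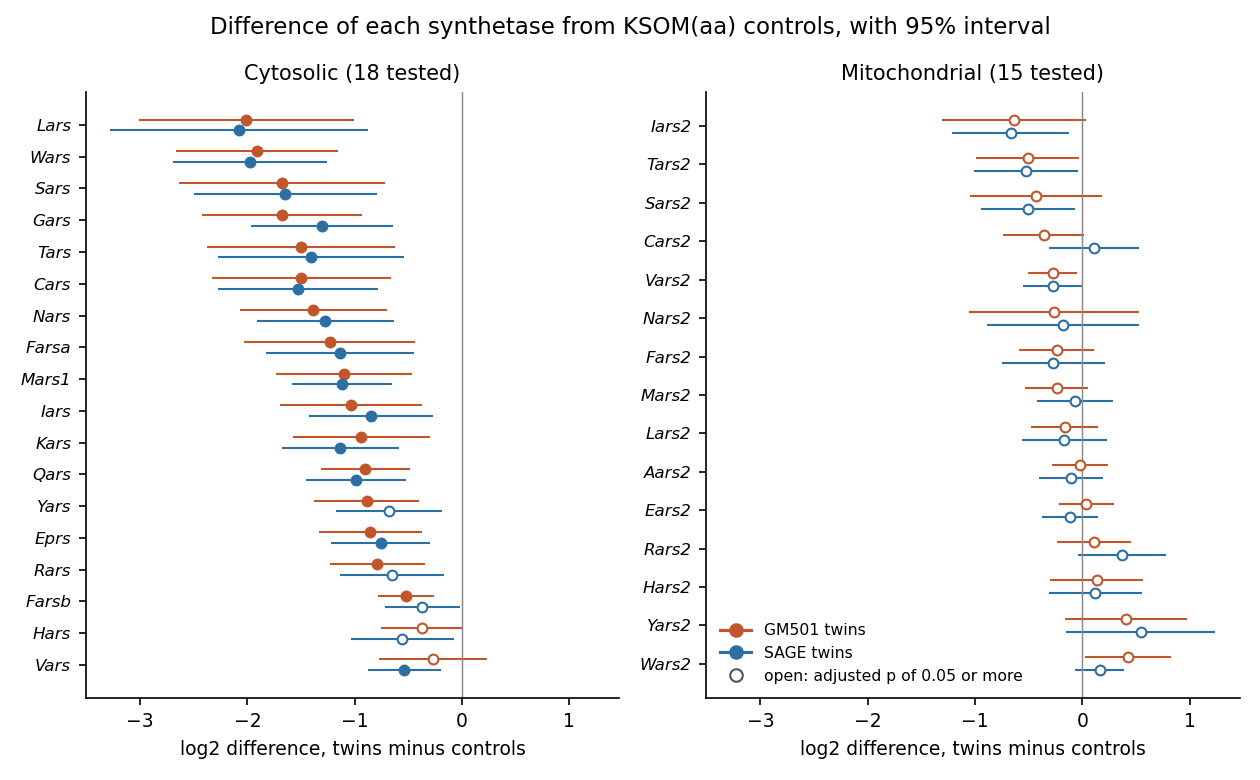
Log2 difference of each of the 33 tested synthetases from the controls, with its 95% interval (limma; 10 twins against 10 controls), cytosolic at left and mitochondrial at right; filled points are called at an adjusted p under 0.05. Cytosolic points run from -2.08 to -0.27 and lie below 0 in both media; mitochondrial points run from -0.67 to 0.55 and all are open.

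The lower cytosolic levels rested on part of the embryos. The 8 twins of pairs 7 to 10 had array medians of 4.69 ± 0.18 (log2 signal, mean ± SD), below the 5.01 of pairs 1 to 6 given above; these sets of samples come from array medians in an earlier analysis of the same values and are no groups of the study. In pairs 1 to 6 the cytosolic index was -1.82 ± 0.27 in GM501 twins and -1.55 ± 0.58 in SAGE twins (n = 6 each). In pairs 7 to 10 it was -0.13 ± 0.31 and -0.45 ± 0.75 (n = 4 each), and the SAGE twin of pair 8 stood alone there at -1.55. That twin also had the array median nearest to those of pairs 1 to 6, at 5.12, while its GM501 sister had an index of -0.51. The part of the array median, and of what sets it, in the synthetase levels was not tested.

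With pairs 7 to 10 alone, 0 members were called in either medium, against 1.32% of all genes called for GM501 and 0.813% for SAGE (0.531% lower). There 14 of 18 cytosolic members lay below the controls in GM501 twins and 17 of 18 in SAGE twins, with medians of -0.12 and -0.45. With pairs 7, 9 and 10 the cytosolic median was 0.00 and -0.07, with 0 members called where 0.415% and 0.685% of all genes were. With pairs 1 to 6 alone, 18 and 17 cytosolic members were called lower, against 21.1% and 19.9% of all genes called lower and 38.3% and 38.9% called higher, and Wars differed by -2.71 ± 0.23 in GM501 twins and -2.52 ± 0.25 in SAGE twins. In these 6 pairs 16 cytosolic members of the GM501 twins did not overlap the controls at all, where 8.18% of genes lay wholly below them; Hars and Farsb did overlap. For the SAGE twins this held for 14, where 7.13% of genes did. Of the mitochondrial members, 1 lay wholly below the controls in these pairs in each medium, Sars2 in GM501 twins and Vars2 in SAGE twins. With all 10 twins, 0 members were free of overlap in either medium, where 0.111% of genes lay wholly below the controls and 0.0774% (GM501) and 0.0553% (SAGE) wholly above.

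**Figure D3:**
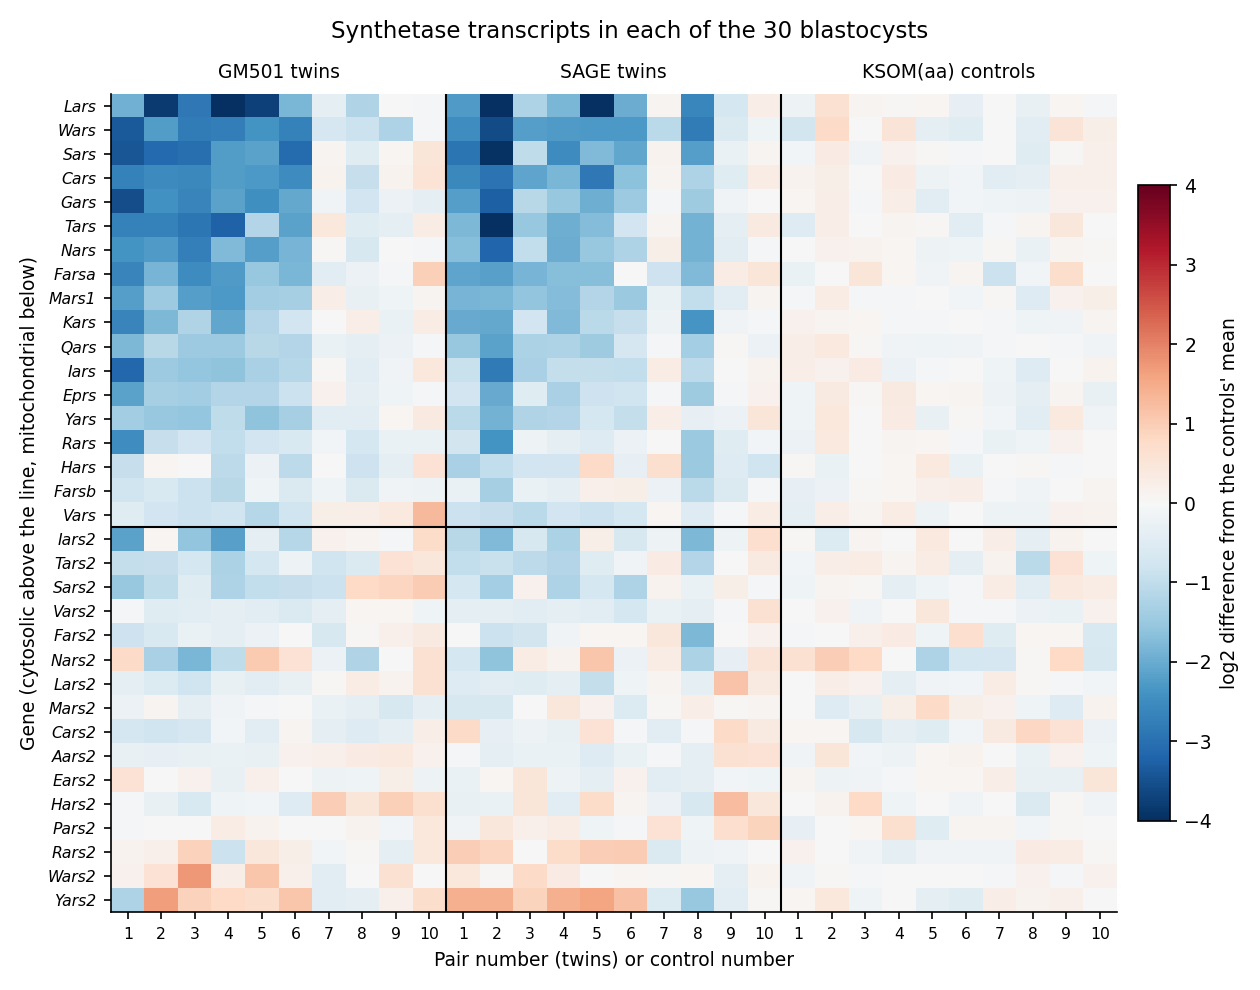
Log2 difference of each of the 34 measured synthetases (rows; cytosolic above the black line) from the controls' mean in each of the 30 blastocysts (columns; twins by pair number); blue is lower and red higher, and the colour scale ends at -4 and 4. Most cytosolic cells are blue in pairs 1 to 6 of both media and in the SAGE twin of pair 8, with exceptions among Hars and Farsb; the mean over these rows is -0.51 in the GM501 twin of pair 8 and from -0.29 to 0.23 in the twins of pairs 7, 9 and 10.

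The calls varied in how far they rested on single arrays. Wars, Gars, Cars, Lars, Nars and Qars were called in both media whichever 1 of the 20 arrays was left out. Altogether 10 of the 16 calls of GM501 twins and 9 of the 14 calls of SAGE twins were kept in every such fit. The count of called cytosolic members fell from 16 to 10 without the GM501 twin of pair 2 or of pair 3. It fell from 14 to 9 without the SAGE twin of pair 1 or of pair 4. Members such as Kars in GM501 twins (adjusted p up to 0.0883, limma) and Iars in both media (up to 0.0717 and 0.0734) lost their call in most of these fits.

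In the deposited scaling the mitochondrial synthetases varied about the controls in both directions, a balance that centring moved: only Wars2 and Yars2 then lay above the controls in GM501 twins, and only Pars2, Rars2 and Yars2 in SAGE twins. Vars2, the valyl enzyme, ran from 5.83 to 6.49 in GM501 twins (median 6.03), from 5.71 to 7.02 in SAGE twins (median 6.03) and from 6.14 to 6.85 in controls (median 6.36). Iars2, the isoleucyl enzyme, ran from 6.63 to 9.54 (median 8.58), from 6.98 to 9.47 (median 8.15) and from 8.24 to 9.18 (median 8.83) in the same order. In 6 GM501 and 7 SAGE twins Vars2 lay below every control, and Iars2 did so in 4 and 6. For Vars2 1 SAGE twin, and for Iars2 1 twin of each medium, exceeded every control, and the rest fell within the controls' range. The differences were -0.28 ± 0.11 and -0.27 ± 0.13 for Vars2 (adjusted p of 0.0788 and 0.136, limma) and -0.64 ± 0.32 and -0.67 ± 0.26 for Iars2 (adjusted p of 0.148 and 0.0736, limma), GM501 before SAGE.

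Sars2, the seryl enzyme, ran from 5.63 to 8.16 in GM501 twins (median 6.27), from 5.78 to 7.39 in SAGE twins (median 6.66) and from 6.69 to 7.55 in controls (median 7.16). In GM501 twins 7 lay below every control and 3 above every control, so no twin fell within the controls' range. Tars2, the threonyl enzyme whose promoter is shown above, ran from 6.22 to 8.06 (median 6.77), from 6.30 to 7.83 (median 6.79) and from 6.40 to 8.06 (median 7.60). Its groups overlapped in range, with 1 GM501 and 2 SAGE twins below the lowest control. That control stood at 6.40 and the next lowest at 7.13. In each medium 8 of 10 twins lay below the controls' median. Neither was called: the differences were -0.43 ± 0.30 and -0.51 ± 0.21 for Sars2 (adjusted p of 0.276 and 0.0897, limma) and -0.51 ± 0.23 and -0.52 ± 0.23 for Tars2 (adjusted p of 0.114 and 0.104, limma).

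A few mitochondrial members had values above the controls. Wars2, the tryptophanyl enzyme (chromosome 3, 99140107 to 99221230), ran from 4.66 to 6.81 in GM501 twins (median 5.30), from 4.72 to 5.84 in SAGE twins (median 5.15) and from 4.92 to 5.24 in controls (median 5.05). Yars2, the tyrosyl enzyme, ran from 8.17 to 11.09 (median 10.11), from 7.88 to 10.98 (median 10.45) and from 8.91 to 9.83 (median 9.45). Rars2, the arginyl enzyme, ran from 9.34 to 11.11 (median 10.37), from 9.62 to 11.21 (median 10.58) and from 9.84 to 10.53 (median 10.15). For Yars2 6 of 10 twins of each medium exceeded every control, and for Wars2 6 GM501 and 3 SAGE twins did. The differences were 0.42 ± 0.19 and 0.16 ± 0.11 for Wars2, 0.41 ± 0.28 and 0.55 ± 0.33 for Yars2 and 0.11 ± 0.17 and 0.37 ± 0.20 for Rars2, GM501 before SAGE, with adjusted p from 0.118 to 0.635 (limma). Centring the arrays on their medians turned Wars2 in SAGE twins to -0.03 and Rars2 in GM501 twins to -0.08, and left Yars2 above the controls at 0.22 and 0.36.

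Ears2, Aars2, Lars2, Fars2, Mars2, Nars2, Cars2 and Hars2 differed by -0.36 (Cars2, GM501) to 0.13 (Hars2, GM501), and each interval of these 8 genes contained 0. The signals of Pars2, below the filter, averaged 4.56 (SD 0.17) for GM501 twins, 4.73 (SD 0.39) for SAGE twins and 4.47 (SD 0.29) for controls, n = 10 each. With pairs 1 to 6 alone, 6 mitochondrial members were called in GM501 twins (5 lower, 1 higher) and 9 in SAGE twins (6 lower, 3 higher), against 59.4% and 58.8% of all genes called. Iars2, Lars2, Sars2, Tars2 and Vars2 were among those lower in both media, and Wars2 was higher in both. Yars2 was higher by 1.32 in the SAGE twins of these pairs and lay wholly above the controls, where 12.4% of genes did. Of all genes, 21.1% and 19.9% were called lower there, beside the 5 and 6 of 15 mitochondrial members and the 18 and 17 of 18 cytosolic members called lower.

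**Figure D4:**
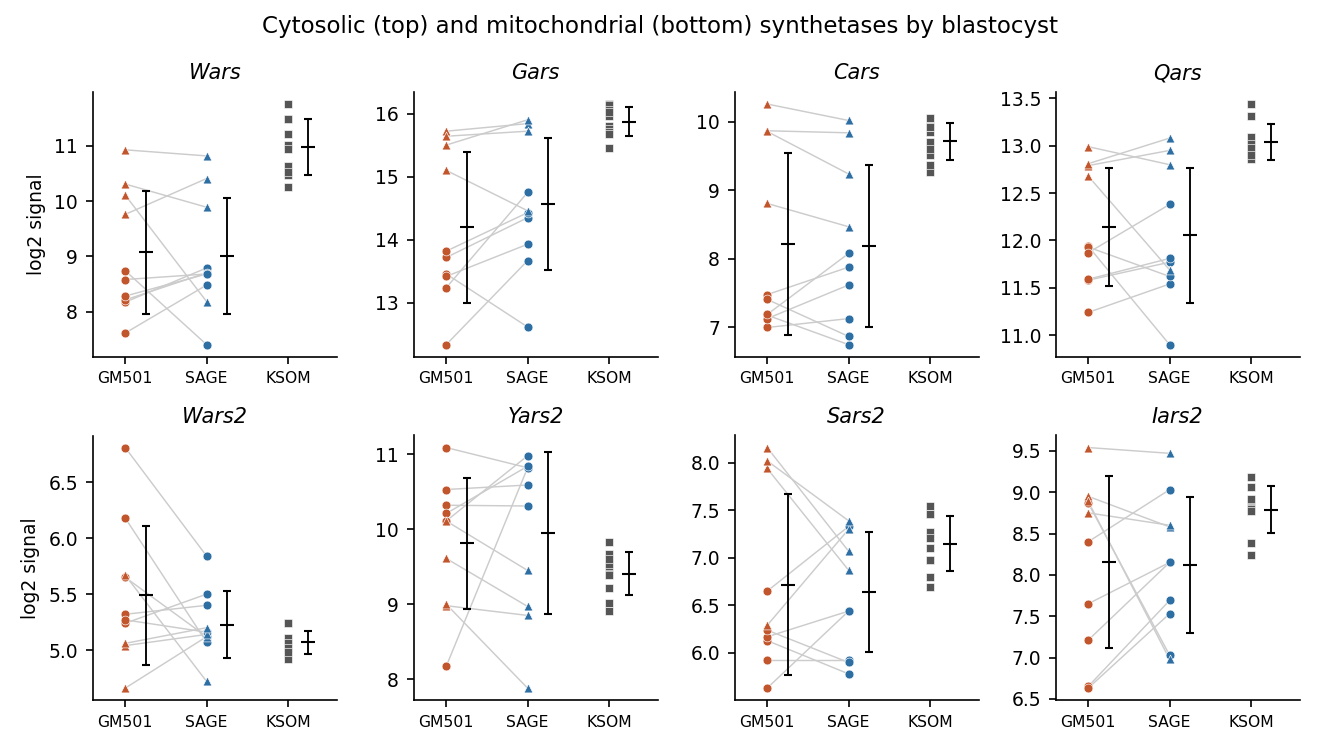
Log2 signals of 4 cytosolic (top) and 4 mitochondrial synthetases (bottom) in each blastocyst; circles are twins of pairs 1 to 6, triangles twins of pairs 7 to 10, squares controls, grey lines join co-twins and bars give mean ± SD (n = 10). Wars in pairs 1 to 6 stays at or below 8.79 while controls begin at 10.25; Yars2 exceeds every control in 6 twins of each medium.

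For 13 amino acids 1 cytosolic gene could be set beside its own mitochondrial counterpart. Phenylalanine was left out of these because its cytosolic enzyme has 2 subunit genes (Farsa -1.23 and -1.14, Farsb -0.52 and -0.37, beside Fars2 at -0.24 and -0.27, GM501 before SAGE), and proline because Pars2 was under the filter and Eprs already stood for glutamate. The cytosolic enzyme lay further below the controls than its partner for 12 of 13 amino acids in GM501 twins and for 13 of 13 in SAGE twins, with a median gap of -0.99 and -1.05 (log2). The widest gap was that of tryptophan, where the difference of Wars minus that of Wars2 was -2.33 in GM501 twins and -2.14 in SAGE twins. Leucine came next (Lars against Lars2, -1.85 and -1.91). In controls Wars2 ran from 4.92 to 5.24 and Lars2 from 5.71 to 6.39, not far above the level filter of 4.80. This limits how far these 2 genes could fall, and its part in the gaps was not tested. Tyrosine paired a lower Yars value with a higher Yars2 value (-1.30 and -1.23). The narrowest gaps were those of valine (0.01 in GM501 twins and -0.27 in SAGE twins) and isoleucine (-0.40 and -0.18), where Iars2 lay below the controls as well. In pairs 7 to 10 the cytosolic enzyme was the lower one for 8 and 11 of 13 amino acids, with median gaps of -0.14 and -0.34. These pairs of genes were drawn up after the values had been seen and are described without a test.

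**Figure D5:**
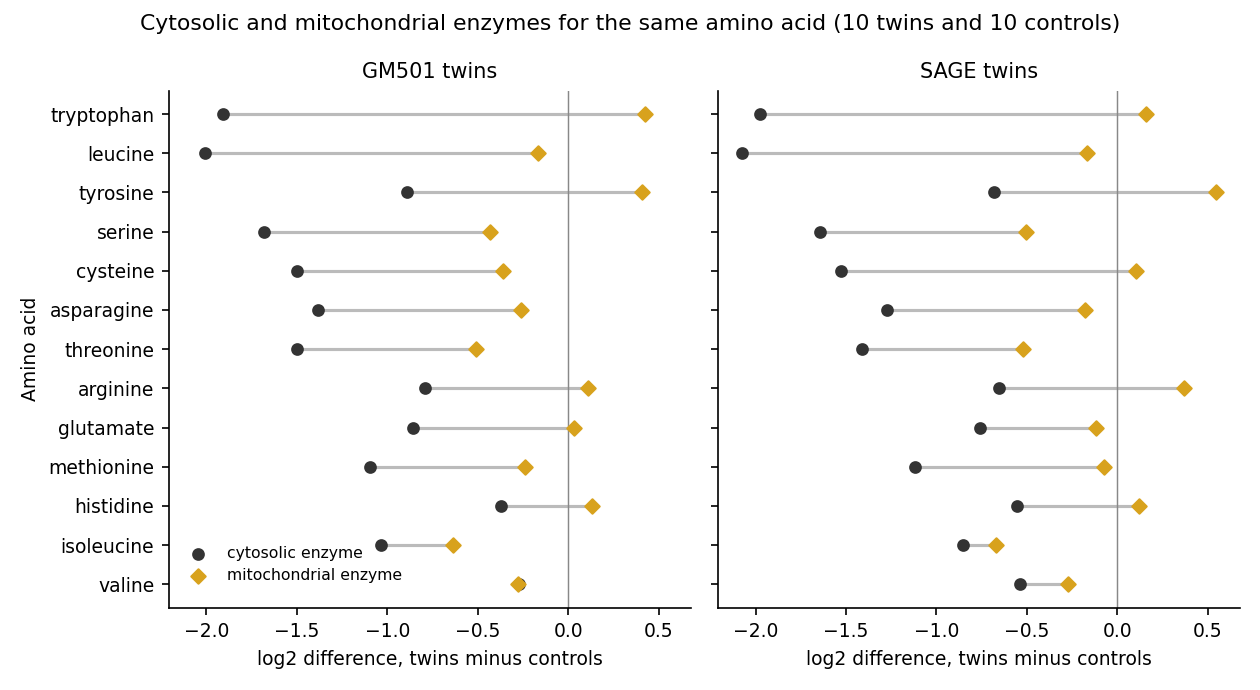
Mean log2 difference from the controls of the cytosolic (black circle) and the mitochondrial enzyme (gold diamond) for 13 amino acids, in GM501 twins at left and SAGE twins at right (10 twins and 10 controls each). The circle lies left of the diamond for every amino acid except valine in GM501 twins; the widest gap is that of tryptophan and the narrowest are those of valine and isoleucine.

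Some cytosolic synthetases are bound in the multisynthetase complex, held together by the scaffold proteins of Aimp1, Aimp2 and Eef1e1, and others act on their own. The 7 measured enzymes of the complex (Eprs, Iars, Kars, Lars, Mars1, Qars and Rars) had 7 calls in GM501 twins and 6 in SAGE twins, with median differences of -0.94 and -0.99. The other 11 cytosolic members had 9 and 8 calls and medians of -1.39 and -1.27. This division was also made after the values had been seen. Of the 3 scaffold genes 0 were called in either medium, with median differences of -0.02 and -0.17, where 13.8% and 16.1% of all genes were called, so that a count over 3 genes tells little. In limma's fit Aimp1 differed by -0.02 ± 0.13 in GM501 twins.

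No synthetase was called between the media. With co-twins compared within pairs, 0 of 33 members and 0.0% of all genes were called (limma). An unadjusted p under 0.05 was found for 695 of 18091 genes, which is fewer than 5% of them. The median difference, GM501 minus SAGE, was -0.06 for the cytosolic and 0.01 for the mitochondrial class. Gars was lower in the GM501 twin of 8 of 10 pairs, by -0.37 on average (95% interval -0.84 to 0.10), and Vars was higher in 7 of 10, by 0.27 (-0.01 to 0.54). Yars differed by -0.21 ± 0.13. Cars2, the mitochondrial cysteinyl enzyme, had the smallest p of a member, 0.0184 before adjustment (limma), with a difference of -0.47 ± 0.17 and the GM501 twin lower in 7 of 10 pairs; its adjusted p was 1. Wars2 and Ears2 differed by 0.26 ± 0.17 and 0.15 ± 0.12. Intervals of single members were wide enough to hold differences such as that of Lars, from -0.76 to 0.89.

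Levels of most cytosolic synthetases differed between the embryos from which the twins came. In limma's F test over the 10 embryos, with medium in the model, 14 of 18 cytosolic and 2 of 15 mitochondrial members were called, against 26.4% of all genes. With centred arrays 14 and 4 were called, against 22.7%. Cars had the largest F, 26.3 (adjusted p of 0.000323, limma). Its co-twins differed by an SD of 0.50 (log2) while pair means ran from 6.97 (pair 2) to 10.14 (pair 10). Mars1, Yars, Gars, Vars, Sars, Lars and Farsa followed with F from 13.8 to 6.72 (adjusted p from 0.00186 to 0.0136, limma). Eprs, Rars, Hars and Farsb were not called. The cytosolic index averaged -1.82 (GM501) and -1.55 (SAGE) in pairs 1 to 6, against -0.13 and -0.45 in pairs 7 to 10. The F test does not tell this split between sets of pairs from a likeness of co-twins. Whether co-twins resembled each other within pairs 1 to 6 or within pairs 7 to 10 was not tested.

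The mitochondrial members with a call were Tars2 (F of 5.39, adjusted p of 0.0249) and Sars2 (F of 4.30, adjusted p of 0.0445, limma). Yars2 was not called (adjusted p of 0.0959), and its widest split was in pair 1, where the GM501 twin stood at 8.17 and the SAGE twin at 10.82. The pair means of Lars covered the widest range of any member, from 7.07 in pair 2 to 12.01 in pair 10. Without pair 10 the count of called cytosolic members fell from 14 to 7 and that of mitochondrial members from 2 to 0; Cars, Gars, Lars, Mars1, Sars, Vars and Yars were called in each of the 10 fits that left out a pair. Array medians differed between pairs too (12 twins of pairs 1 to 6 at 4.81 or more, and the SAGE twin of pair 8 at 5.12), and the part of that difference in the F test was not tested.

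Of 26 other known ATF4 targets tested, 13 were called lower in GM501 twins and 12 in SAGE twins, and 0 higher, against 6.97% and 8.63% of all genes called lower, with median differences of -0.78 and -0.57. Slc3a2 and Slc7a5, the heavy and light chains of an exchanger of large neutral amino acids, differed by -1.70 ± 0.32 and -2.57 ± 0.57 in GM501 twins and by -1.51 ± 0.26 and -2.18 ± 0.52 in SAGE twins. Psat1, of serine synthesis, fell by 1.65 in GM501 twins, and Shmt2, which passes serine carbon to folate in mitochondria, fell by 1.64 in SAGE twins. The stress gene Ddit3 fell by 1.44 in GM501 twins, and the amino acid sensor gene Sesn2 fell by 1.44 in SAGE twins. In pairs 7 to 10 this list had 2 calls in GM501 twins (1 higher, 1 lower) and 0 in SAGE twins, against 1.32% and 0.813% of all genes. Atf4 itself and its relatives Atf3 and Atf5 were not called in either medium. Atf4 had a mean signal of 11.23, well above the level filter of 4.80. Mean signals of Atf3 and Atf5 were 4.92 and 4.98, close to that filter, which limits how far these genes can fall. The part of ATF4 in the synthetase levels was not tested. Of the kinases that signal to ATF4 (Eif2ak1 to Eif2ak4), 0 of 4 were called in either medium.

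Of the 7 cytosolic elongation genes, 2 were called lower in GM501 twins and 4 in SAGE twins, against the same 6.97% and 8.63%. With pairs 7 to 10 alone 0 were called in either medium, against 1.32% and 0.813% of all genes. Their median differences there were 0.043 and -0.206. With all 10 twins of a medium, Eef2, which moves the ribosome along the message, differed by -2.05 ± 0.61 and -2.34 ± 0.60, and Eif5a by -1.16 ± 0.37 and -1.26 ± 0.40. Eef1g and Eef1d, subunits of the exchange factor that recharges the carrier of aminoacyl-tRNA, were called in SAGE twins only (-0.46 and -0.44); whether the media differ in this was tested in the paired comparison, which called 0 of the 7. On the mitochondrial side 0 of 10 translation factors were called in GM501 twins and 2 in SAGE twins, Tufm (-0.72 ± 0.24) and Mtif3 (-0.62 ± 0.19), both lower. Of 9 genes for mitochondrial tRNA charging and modification, 0 were called in GM501 twins and 1 in SAGE twins, Gatc (0.81 ± 0.25), a subunit of the enzyme that makes glutaminyl-tRNA in mitochondria. Of 7 genes of tRNA editing and recycling, Ptrhd1 was called higher (0.72 ± 0.20) and Sephs2, which makes the selenium donor for selenocysteine, lower (-0.53 ± 0.15) in GM501 twins, and 0 were called in SAGE twins. These last 3 lists hold few genes, and their counts stand beside 13.8% and 16.1% of all genes called in 1 direction or the other.

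Markers of the blastocyst's own lineages moved beside these genes. Of 8 trophectoderm markers, 7 were called lower in each medium, against 6.97% (GM501) and 8.63% (SAGE) of all genes, and their mean level ran from 10.83 to 11.70 in GM501 twins, from 10.26 to 11.89 in SAGE twins and from 11.64 to 12.17 in controls (log2 signal). Of 5 epiblast markers, 0 were called in GM501 twins and 4 in SAGE twins, all 4 lower, with median differences of -0.56 and -1.03. The paired comparison of the media called 0 of these 5. The mean level of the epiblast markers ran from 7.11 to 9.45 in GM501 twins, from 6.86 to 8.15 in SAGE twins and from 8.20 to 9.19 in controls. Of 3 primitive endoderm markers tested, 1 was called lower in each. Markers of cumulus, oviduct and blood cells, 5 of 8 measured and 2 tested, had 0 calls and mean levels of 4.33 to 5.19, 4.39 to 5.17 and 4.47 to 4.78, close to the arrays' own medians. With pairs 7 to 10 alone, 1 trophectoderm marker was called lower in GM501 twins and 0 in SAGE twins, with median differences of -0.275 and -0.241. There 0 epiblast and 0 primitive endoderm markers were called in either medium. Of all genes, 0.575% (GM501) and 0.531% (SAGE) were called lower with these pairs. The part of lineage make-up in the synthetase levels was not tested.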

How the data were processed

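RNA of single blastocysts was amplified and labelled with the GeneChip WT Pico kit, per the labels' protocols. These give 20 µg for the cRNA and 5.5 µg for the labelled material, as separate amounts. The deposited values are log2 signals of 65956 transcript clusters, made by the authors with RMA in Affymetrix Expression Console on mm10, per the submitters' processing notes; versions are not given in the sources used here. The base 2 was read from the range of the values. RMA normalizes across arrays, yet array medians in the deposited values still ran from 4.57 to 5.28. Signals are relative within a cluster, so levels of different genes were only set beside the level filter or the array medians. The number of arrays limits the precision.

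Clusters were named through the deposited platform annotation, updated by gene ID (827 clusters) to the RefSeq table of GRCm38.p6. Of 32750 clusters with a listed gene, 30604 had 1 symbol and 2146 several; the cluster with the highest mean stood for a gene. The upper 60% of the 30142 genes by mean signal (4.80 or more) were tested. The lmFit and eBayes functions of limma 3.58.1 (R 4.3.3) gave two-sided tests, adjusted by Benjamini-Hochberg over 18091 genes and called at an adjusted p under 0.05. A twin group and the controls, 20 arrays, entered each comparison with controls; the media were compared with the pair as a block, since co-twins share an embryo per the labels. The pairing was checked on the values: partners' deviations correlated with r from 0.163 to 0.696, and 7 of 10 GM501 twins were closest to their own partner. No arrays were identical. The labels name no number of matings or culture days, so p-values cover only the spread between these blastocysts. The procedure was tested on simulated data with independent genes and no shift of whole arrays, a simpler setting than that of these arrays.

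The members, the related lists and the sets of pairs were chosen with earlier results of these data known. Members were described by their p: per comparison up to 8 called members of each class with the smallest p, or the 3 with the smallest p where none was called; array values are given for the 6 cytosolic and 4 mitochondrial members with the smallest p against controls and for mitochondrial members above the controls. Related lists give up to 4 called genes. Lars pair means, Aimp1, Pars2 and the promoter genes were named for completeness. Alternatives changed the scaling, the level filter, the limma fit, the cluster of a gene, the arrays and the pair block.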

Additional observations from a re-analysis of the deposited data

Results flagged for a closer look

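Of 111 groups of 10 values (each member and class index in each group), 8 had a sample far from the rest: its gap to the nearest other sample, divided by the group's range, exceeded Dixon's 95% critical value, which chance passes in about 1 of 20 groups. The SAGE twin of pair 2 was lowest for Tars (9.42, others 11.93 to 14.26; ratio 0.519) and for Iars (9.10, others 10.63 to 12.22; ratio 0.49). It also had the lowest cytosolic index of all 30 blastocysts, -2.66. The GM501 twin of pair 1 was lowest for Rars (10.88, others 12.37 to 13.26; ratio 0.626). The SAGE twin of pair 10 was highest for Vars2 (7.02, others 5.71 to 6.37; ratio 0.496). Among the controls, control 2 was highest for Lars (12.51, with the lowest control at 11.56; ratio 0.537), control 8 lowest for Mars1 (11.41, others 11.82 to 12.23; ratio 0.5), control 3 highest for Hars2 (8.15, others 6.77 to 7.49; ratio 0.478) and control 4 highest for Pars2 (5.10, others 3.99 to 4.58; ratio 0.468).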

How the results depend on the processing

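Called cytosolic members numbered 15 to 18 for GM501 and 12 to 17 for SAGE twins under other scalings, filters, clusters and limma fits, and 0 and 0 with pairs 7 to 10 or with pairs 7, 9 and 10. Leaving out 1 array gave 10 to 17 and 9 to 17. Called mitochondrial members went from 0 to 2 (centred arrays), 1 (quantile), 6 (array weights) and 6 (pairs 1 to 6) for GM501, to 8 (array weights) and 9 (pairs 1 to 6) for SAGE, and to 0 to 2 and 0 to 3 with 1 array left out. Genes called were 5757 and 7911 with no filter, 7912 and 8876 with array weights, 239 and 147 with pairs 7 to 10, 75 and 124 with pairs 7, 9 and 10, and 10743 and 10643 with pairs 1 to 6, GM501 before SAGE. With 1 array left out they ran from 1128 to 5272 and from 1312 to 6307. For GM501 they fell to 1128 to 1629 without each twin of pairs 1 to 6 and controls 2, 3, 6, 9 and 10, and rose to 4043 to 5272 without those of pairs 7 to 10. For SAGE they fell to 1312 to 1902 without twins 1 to 4 and controls 2, 3, 9 and 10, and rose to 4575 to 6307 without twins 7, 9 and 10. With centred arrays the split of calls over all genes was 2.02% higher and 9.99% lower for GM501 and 2.15% and 13.2% for SAGE.

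The embryo test called 3188 to 6348 genes, 7 to 15 cytosolic and 0 to 4 mitochondrial members without 1 pair, and 4 (centred), 1 (no filter) and 5 (array weights) mitochondrial members. Without the pair block the media comparison still had 0 calls, as with each pair left out (0 to 0), so the block changed no call.

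Class medians with 1 array left out were -1.21 to -0.90 and -1.26 to -1.03 (cytosolic) and -0.24 to -0.09 and -0.15 to -0.05 (mitochondrial), and between media -0.22 to 0.08 and -0.11 to 0.02. With pairs 7 to 10 the cytosolic median of GM501 twins was -0.122, the index -0.127 and the class difference -0.19. With pairs 7, 9 and 10 they were 0.00, 0.001 and -0.103, the mitochondrial median 0.09, and for SAGE twins -0.069, -0.086 and -0.24. There the sign turned for Cars (0.28) and Tars2 (0.077) in GM501 twins and for Iars2 (0.093), Sars2 (0.103; 0.007 with pairs 7 to 10) and Tars2 (0.217) in SAGE twins, as it did for Gars between media (0.01, pairs 7 to 10). Fewer samples enter these fits; beyond that the cause was not tested.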
